A study of Mus musculus with 12 samples.

Results

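Blockade of PDGFRβ was compared with control IgG in the retinas of mice at postnatal day 28 (P28), using the 46179 of 50559 genes in the count table that lie on the autosomes or the mitochondrial genome. The comparison used 6 of the 12 libraries of the series, 3 from APB5-treated mice and 3 from mice treated with IgG, and no minocycline was given to either group. All mice were WT on the C57BL6/J strain. At P1 the pups were given 30 µg of either APB5, a rat monoclonal antibody that binds mouse PDGFRβ, or an IgG isotype, so both groups carried an injected antibody. The antibody reached the whole animal and was not restricted to a cell type, and the tissue was the whole retina. By the study's description the libraries of a group came from separate mice, and both sexes were used in the study without a record here of the sex behind each library. Of the 46179 genes, 30928 had at least 1 count in the 6 libraries and 19278 had enough counts to be tested.

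Pericytes wrap the endothelial tube of retinal capillaries and are drawn to it by PDGFB, which endothelial cells secrete and which binds PDGFRβ on the pericyte. Blocking the receptor in the first days of life, while the retinal vessels are still growing, leaves the vessels short of pericytes. Müller glia, the radial glia of the retina, answer many kinds of injury with reactive gliosis, in which they make the intermediate filament protein GFAP and acute-phase proteins, largely under cytokines that signal through the receptor subunit gp130 and the transcription factor STAT3. Microglia are the resident macrophages of the retina, and the complement cascade marks material for their uptake.

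The 6 libraries held between 53392207 and 59411044 counts and between 26978 and 28479 detected genes. APB5 replicate 3 lay apart from the rest, with a score of 106.3 on the first principal component (56.8% of the variance) against −36.1 to −5.14 for the other 5 libraries. Xist, the RNA of the inactive X chromosome, had 47210 to 91647 counts in the 3 IgG libraries and 83956 in APB5 replicate 3, but 5 and 14 in APB5 replicates 1 and 2. Only APB5 replicate 3 therefore matched the IgG libraries in this marker of sex, and for APB5 replicates 1 and 2 the effects of APB5 and of sex cannot be told apart. Nor can differences between APB5 replicate 3 and replicates 1 and 2 be told apart from effects of sex. Levels are given below as CPM, counts scaled to the size of each library with TMM factors, in the order of replicates 1, 2 and 3. CPM are not corrected for gene length and are compared between libraries, not between genes.

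The tissue carried the markers of retina. Gnat1, the rod transducin gene, had 10373, 10947 and 15834 CPM in IgG and 12486, 10505 and 2954 CPM in APB5, and the amacrine cell enzyme gene Gad1 had 309.5, 316 and 318 CPM in IgG and 321, 321 and 318 CPM in APB5. Red cell, lens and pigment epithelium RNA was also present, and its amounts are given further below.

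Pdgfrb, which encodes the antibody's target (chromosome 18), had 14.1, 13.2 and 20.5 CPM in IgG and 15.8, 16.7 and 40.03 CPM in APB5. Its level in APB5 replicates 1 and 2 lay within the range of the IgG libraries, and that in APB5 replicate 3 was above it. Its log2 fold change was 0.60 (SE 0.38), with an adjusted P of 0.707 in the quasi-likelihood fit of edgeR with Benjamini-Hochberg correction. An antibody against the protein need not alter the mRNA, so this level does not measure the blockade.

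The pericyte genes did not share a direction. Of 24 pericyte genes, all of them tested, 16 had a higher and 8 a lower mean log2 level in APB5. By the list score defined below, they scored 0.075, 0.026 and 0.85 in APB5 and were higher in replicate 3 only. In all 3 APB5 libraries 4 genes (16.7%) were above and 2 (8.3%) below IgG, against 8.11% and 7.64% of all genes. Rgs5, a regulator of G protein signaling and a standard pericyte marker (chromosome 1, 169483036 to 169524887 on GRCm39), had 69.5, 73.4 and 75.5 CPM in IgG and 91.6, 90.4 and 170.3 CPM in APB5, so each APB5 library was above each IgG library. Kcnj8, a subunit of the pericyte potassium channel (chromosome 6, 142510563 to 142517830), had 3.61, 3.79 and 4.02 CPM in IgG and 2.73, 2.12 and 3.2 CPM in APB5, and here each APB5 library was below each IgG library. The log2 fold changes were 0.69 (SE 0.25) for Rgs5 and −0.50 (SE 0.24) for Kcnj8, and edgeR called neither (adjusted P = 0.664 and 0.664).

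The only pericyte gene called by any of the 3 models was Ndufa4l2, a mitochondrial protein gene that hypoxia induces and that pericytes express (chromosome 10, 127350818 to 127353038). It had 2.25, 2.54 and 5.46 CPM in IgG and 13.8, 10.6 and 12.8 CPM in APB5, with no overlap between the groups and a log2 fold change of 1.85 (SE 0.36). It was called by DESeq2 (adjusted P = 0.000428) and by limma's voom with quality weights (adjusted P = 0.0049), and not by edgeR's quasi-likelihood test (adjusted P = 0.664). Among all genes tested, DESeq2 called 0.394% and voom 0.109% higher. Mcam, a cell adhesion gene of pericytes and sprouting endothelium, had 10.9, 13 and 10.7 CPM in IgG and 20.01, 15.9 and 26.9 CPM in APB5, again without overlap. Atp13a5, an ATPase gene whose transcript marks brain pericytes, had 1.27, 1.37 and 0.793 CPM in IgG and 0.707, 0.300 and 0.646 CPM in APB5. The summed level of the 24 genes was 791, 824 and 1247 CPM in IgG and 878, 755 and 580.5 CPM in APB5, so the list's total was lowest in the library in which its median was highest. Fewer cells of a type and less RNA per cell cannot be told apart in such whole-tissue libraries.

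The PDGF ligand and receptor list scored 0.093, 0.10 and 1.36 and was higher in replicate 3 only. With all 6 libraries 7 of 7 genes had a positive log2 fold change, with a median of 0.60, which was 0.046 without replicate 3. Pdgfra, the receptor of retinal astrocytes and of fibroblasts (chromosome 5, 75311994 to 75358876), had 11.2, 13.7 and 12.7 CPM in IgG and 23.5, 24.8 and 69.2 CPM in APB5, and its groups did not overlap. Its log2 fold change of 1.64 (SE 0.42) was called by DESeq2 (adjusted P = 0.0205) but not by edgeR's quasi-likelihood test (adjusted P = 0.664). The ligand genes Pdgfa and Pdgfd had 9.17, 7.92 and 8.16 CPM in IgG and 9.54, 9.47 and 17.9 CPM in APB5, and 4.68, 6.29 and 5.75 CPM in IgG and 6.94, 6.36 and 10.9 CPM in APB5, respectively. For both, the APB5 libraries lay just above the IgG range in replicates 1 and 2 and further above it in replicate 3.

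Across all genes tested, edgeR called 0 genes higher (0.0%) and 0 lower (0.0%) in APB5 by its quasi-likelihood test, where a call needed a Benjamini-Hochberg adjusted P no greater than 0.05 and a log2 difference of 1 or more. The smallest adjusted P was 0.277, and 1415 genes had an unadjusted P of at most 0.05. At that unadjusted P and the same fold threshold, 626 genes (3.25%) were higher and 89 (0.462%) lower. Of these 626 genes, 471 (75.2%) were above all 3 IgG libraries in each of the 3 APB5 libraries, and 82 of the 89 were below in each. Over all genes tested these shares were 8.11% and 7.64%. The 626 and 89 genes were picked by their difference in the same libraries, so their higher shares largely follow from that choice.

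Other models of the same 6 libraries called more genes. DESeq2 called 76 genes higher (0.394%) and 7 lower (0.0363%), and voom with quality weights called 21 higher (0.109%) and 3 lower (0.0156%). With APB5 replicate 3 left out, edgeR called 13 genes higher and 2 lower in a fit in which the groups differ in sex as well as in treatment. The calls of voom and DESeq2 on all 6 libraries shared 17 of the genes called higher and 1 of those called lower. The 76 genes that DESeq2 called higher were picked by their difference in these same libraries, so lying above IgG largely follows from that choice. Of the 76 genes, 75 were above all IgG libraries in each APB5 library, as were 8.11% of all genes. At least 1 log2 unit above the IgG mean in each were 53 of the 76. Their median difference from the IgG mean was 1.5 and 1.45 log2 units in APB5 replicates 1 and 2 and 3.19 in replicate 3, which held the highest value of the 3 APB5 libraries for 73 of the 76 genes.

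The 3 APB5 libraries differed in how many genes lay far from the IgG mean. APB5 replicate 3 was at least 1 log2 unit above the IgG mean for 2331 genes and at least 1 below it for 1253. The same counts were 370 and 343 in replicate 1, and 452 and 337 in replicate 2. Of these genes, 132 were at least 1 above and 31 at least 1 below in all 3 APB5 libraries. By rank alone, 4378 genes (22.7%) in replicate 1, 4923 (25.5%) in replicate 2 and 6932 (36.0%) in replicate 3 were above all 3 IgG libraries, and 4203 (21.8%), 5199 (27%) and 6605 (34.3%) were below all of them. All 3 APB5 libraries lay above all IgG libraries for 1564 genes (8.11%) and below them for 1473 (7.64%).

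To describe cell types and pathways, 67 gene lists holding 1311 distinct genes were drawn up, and the 65 with at least 5 tested genes were scored in each library. The score was the median, over the tested genes of a list, of the log2 CPM minus the mean of the 3 IgG libraries. A list was counted as higher in an APB5 library where its score was above those of all 3 IgG libraries and at least 0.5, and as lower by the mirrored rule. Of the 1311 genes, 1175 were tested, and 119 had too few counts to be tested. The median over all genes tested was within 0.01 of 0 in every library. The lists share genes, were chosen with earlier results of these data known, and are described without a test.

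**Figure D1:**
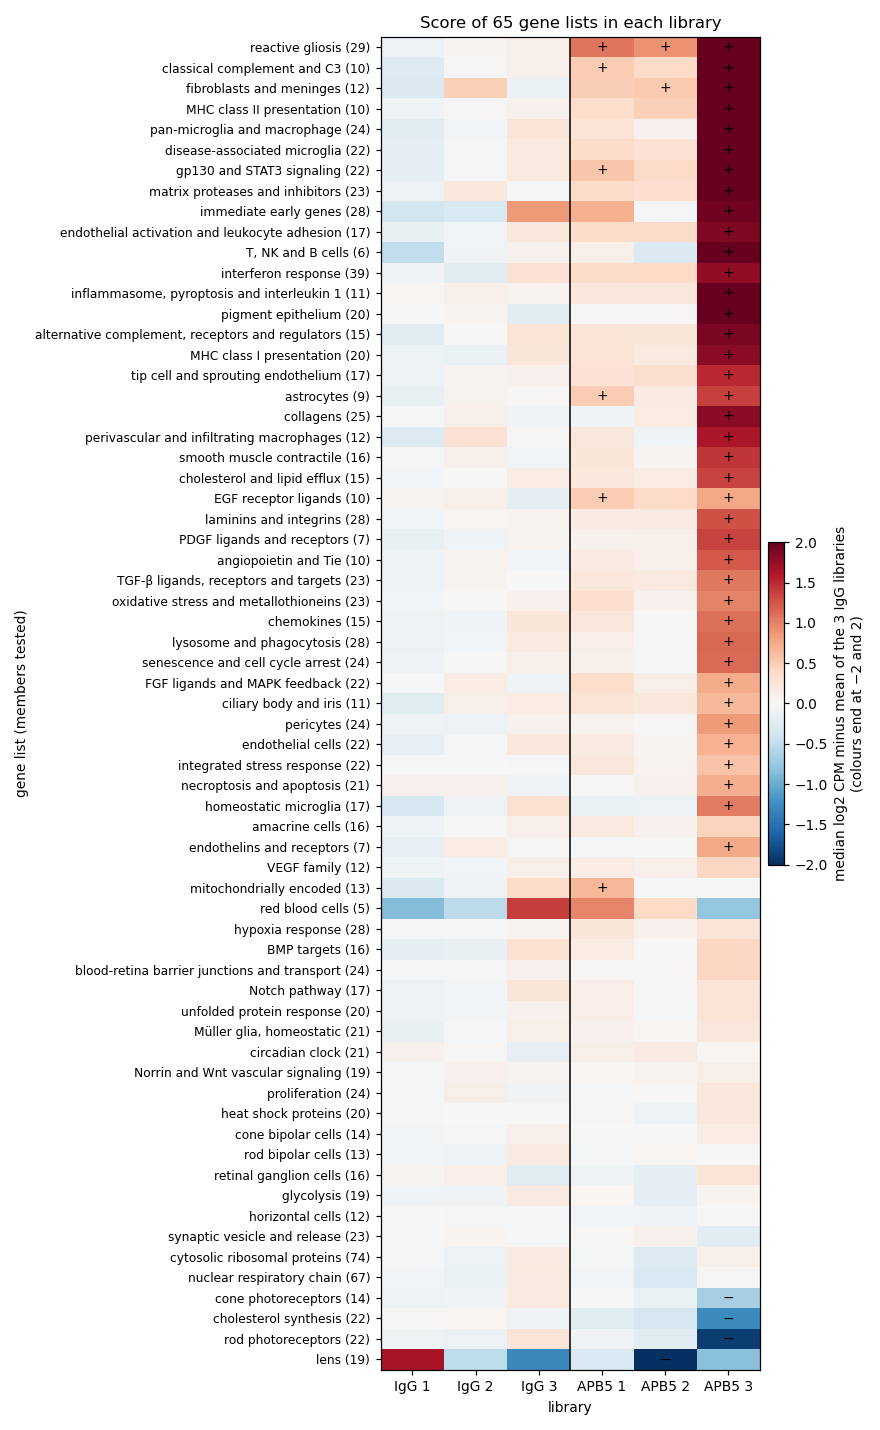
Score of the 65 lists with at least 5 tested genes (rows) in the 6 libraries (columns), as the median log2 CPM minus the mean of the 3 IgG libraries, with red for higher and blue for lower; a plus or minus sign marks an APB5 library in which a list was counted as higher or lower. Signs fill the APB5 3 column, with 39 plus and 3 minus signs, while APB5 1 has 6 plus signs and APB5 2 has 2 plus signs and 1 minus sign.

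The plot of list scores shows a single list that was higher in all 3 APB5 libraries, reactive gliosis. Another 5 lists were higher in 2 of the 3 libraries, and 34 in 1 of them, which was replicate 3 for 33 lists and replicate 1 for the mitochondrially encoded genes. No list was lower in 2 or 3 of the APB5 libraries, 4 were lower in 1, and 21 were neither higher nor lower in any. Lists of markers and pathways thus gave 6 higher scores in replicate 1, 2 in replicate 2 and 39 in replicate 3.

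Among the genes that were higher in every APB5 library, Lad1 and the 2 genes of the Fgf2 locus had the smallest P values. Fgf2, a growth factor that protects photoreceptors and is made by Müller glia under stress (chromosome 3, 37402473 to 37464257), had 25.8, 30.8 and 22.2 CPM in IgG and 81.1, 108 and 161 CPM in APB5. Its log2 fold change was 2.15 (SE 0.27), with adjusted P values of 0.322 by edgeR's quasi-likelihood test, 2.35e-10 by DESeq2 and 0.0049 by voom. Fgf2os, the antisense gene at the same locus (chromosome 3, 37389481 to 37403889), had 0.290, 0.253 and 0.670 CPM in IgG and 5.75, 7.13 and 12.8 CPM in APB5. The sources used here do not say whether the counting was strand-specific, so reads of this overlapping pair could have been exchanged.

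Lad1, which encodes a basement membrane filament protein (chromosome 1, 135746332 to 135761080), had 2.7, 2.78 and 2.87 CPM in IgG and 9.91, 15.5 and 19.9 CPM in APB5, and every APB5 library was well above the narrow IgG range. Its log2 fold change of 2.42 (SE 0.28) came with adjusted P values of 0.277 by edgeR's quasi-likelihood test and 4.88e-13 by DESeq2. Tnnt2, the cardiac troponin T gene, is the next protein-coding gene after Lad1 on chromosome 1 and had 2.21, 1.71 and 1.87 CPM in IgG and 4.48, 4.78 and 6.11 CPM in APB5. Both neighbours were picked among genes whose groups did not overlap, so the lack of overlap is part of the choice.

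Glycam1, a sialomucin that binds the leukocyte receptor L-selectin (chromosome 15, 103471186 to 103473515), had 0.236, 0.0902 and 0.494 CPM in IgG and 4.91, 4.91 and 6.74 CPM in APB5. The 3 APB5 libraries were at similar levels, all far above the IgG libraries. The log2 fold change was 4.17 (SE 0.53), with adjusted P values of 0.322 by edgeR's quasi-likelihood test and 2.58e-15 by DESeq2. Edn2, the endothelin made by stressed photoreceptors (chromosome 4, 120018403 to 120024557), had 5.56, 7.92 and 12.1 CPM in IgG and 30.8, 38.6 and 89.9 CPM in APB5, with a log2 fold change of 2.64 (SE 0.47) and adjusted P values of 0.664 by edgeR's quasi-likelihood test and 4.07e-06 by DESeq2.

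**Figure D2:**
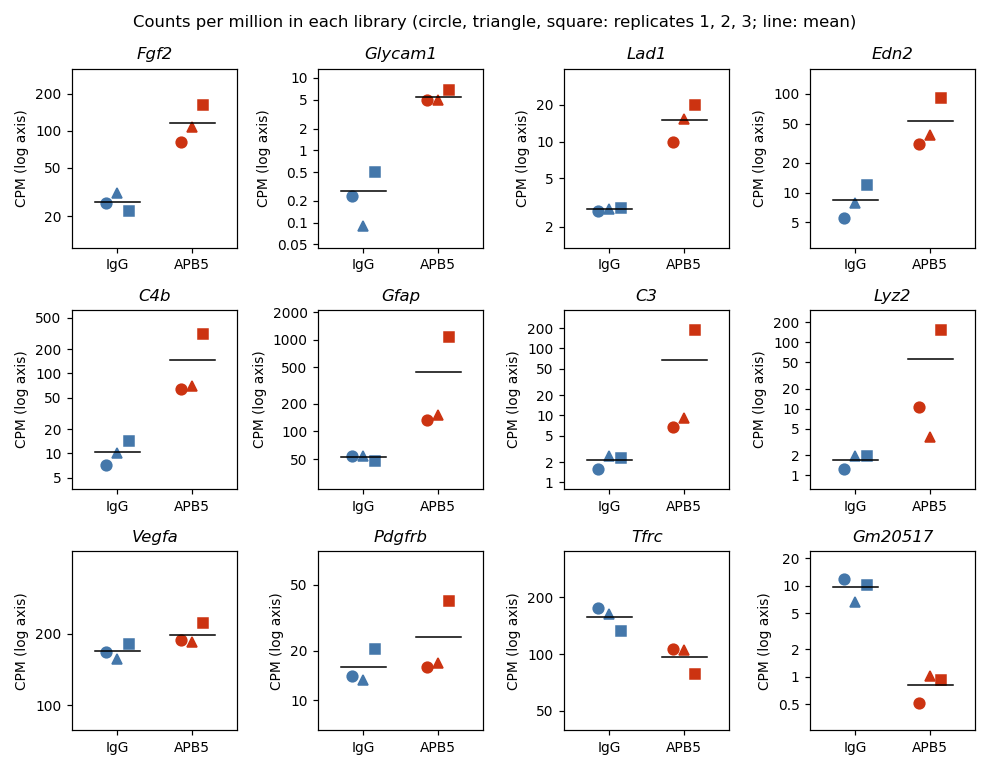
CPM on a log axis of 12 genes in the 3 IgG (blue) and 3 APB5 (red) libraries, with replicates 1, 2 and 3 as circle, triangle and square and the group mean as a line. Glycam1 lies between 4.91 and 6.74 CPM in the 3 APB5 libraries, whereas C3, Lyz2 and Gfap are far higher in the square of replicate 3 than in the other 2 APB5 libraries.

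Among the 15 genes with the smallest P values that were higher in each APB5 library were also Antxr2, Ptgfr and Il17rb. Antxr2, the anthrax toxin receptor gene that binds extracellular matrix (chromosome 5, 98030642 to 98179263), had 9.13, 8.85 and 11.4 CPM in IgG and 27.4, 28.3 and 17.4 CPM in APB5, and it was the only one of these 15 whose lowest APB5 value was in replicate 3. Ptgfr, the receptor of prostaglandin F, had 0.399, 0.721 and 0.229 CPM in IgG and 3.29, 1.73 and 5.09 CPM in APB5, and Il17rb, a receptor subunit for interleukin 25, had 0.163, 0.288 and 0.405 CPM in IgG and 1.15, 1.22 and 2.43 CPM in APB5. The other genes of this set were Klhl29, Lrrc2, Smco3, C4b and the noncoding RNAs 2900057B20Rik and 9330159M07Rik, with log2 fold changes of 0.86 (Klhl29) to 3.81 (C4b).

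Fewer genes were lower in every APB5 library, and the most marked was the predicted gene Gm20517 (chromosome 17, 47922514 to 47994786). It had 12, 6.62 and 10.2 CPM in IgG and 0.521, 1.03 and 0.914 CPM in APB5, a log2 fold change of −3.49 (SE 0.36), with adjusted P values of 0.277 by edgeR's quasi-likelihood test, 2.19e-19 by DESeq2 and 0.0159 by voom. Tfrc, the transferrin receptor through which cells and the blood-retina barrier take up iron (chromosome 16, 32427556 to 32451612), had 176, 164 and 133 CPM in IgG and 106, 105 and 78.8 CPM in APB5. Its log2 fold change was −0.71 (SE 0.17), and it was called by neither DESeq2 (adjusted P = 0.0838) nor voom (adjusted P = 0.0583).

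Of the other genes in this direction, Col22a1, a collagen of tissue junctions, had 2.48, 1.82 and 2.93 CPM in IgG and 0.818, 0.450 and 0.693 CPM in APB5. Esrp1, an epithelial splicing factor, had 1.94, 1.71 and 1.76 CPM in IgG and 0.502, 0.394 and 0.0630 CPM in APB5, and Cpne7, a calcium-binding copine, had 33.4, 26.5 and 34.6 CPM in IgG and 19.9, 20.1 and 17.5 CPM in APB5. DESeq2 gave adjusted P values of 0.000489, 0.0148 and 0.0337 for these 3 genes, and the log2 fold change of Cpne7, −0.71, was under the fold threshold. These 3 were likewise picked among genes whose groups did not overlap.

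Reactive gliosis was the only list that passed the 0.5 threshold in all 3 APB5 libraries. Other lists also scored above all IgG libraries in each APB5 library but missed that threshold in some of them. Of its 30 genes, 29 are on autosomes and all 29 were tested, and each had a positive log2 fold change, with a median of 2.35 against −0.0033 over all genes tested. The score was 1.06, 0.90 and 3.47 in the APB5 libraries and −0.11 to 0.11 in the IgG libraries. In APB5 replicates 1, 2 and 3, 25, 21 and 28 of the 29 genes were above all IgG libraries. These shares were 86.2%, 72.4% and 96.6%, against 22.7%, 25.5% and 36.0% of all genes. In all 3 APB5 libraries 21 of 29 (72.4%) were so, against 8.11% of all genes. DESeq2 called 4 of the 29, Fgf2, Edn2, Bcl3 and Emp1, where it called 0.394% of all genes higher. The study names Fgf2 and Edn2 for these data, and the list was chosen with earlier results known. This share is therefore not independent support. Without APB5 replicate 3 the median log2 fold change of the list was 0.92.

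Gfap (chromosome 11, 102778159 to 102791738 on GRCm39), the gene of the glial filament protein, had 54.6, 54.5 and 47.2 CPM in IgG and 133, 151 and 1065 CPM in APB5. Every APB5 library was above every IgG library, with replicates 1 and 2 close to each other and replicate 3 far above them. Its log2 fold change was 3.11 (SE 0.81) with all libraries and 1.45 without APB5 replicate 3. Bcl3, a coactivator in NF-κB signaling, had 0.525, 0.811 and 1.09 CPM in IgG and 4.02, 4.14 and 32.1 CPM in APB5, and Mt2, a metallothionein that binds zinc and copper, had 57.7, 65.3 and 73.1 CPM in IgG and 212, 182 and 1122 CPM in APB5.

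Lcn2, Serpina3n and Nes lay outside the rule for naming genes and were chosen after their values were seen. Lcn2, the iron-carrier-binding acute-phase protein gene, had 6.11, 7.66 and 6.52 CPM in IgG and 16.9, 17 and 1397 CPM in APB5, and Serpina3n, a protease inhibitor of reactive astrocytes and Müller glia, had 6.34, 13 and 8.34 CPM in IgG and 25.9, 22.1 and 1414 CPM in APB5. Their log2 fold changes were 6.13 (SE 1.82) and 5.72 (SE 1.70), the difference between replicate 3 and the other 2 APB5 libraries was larger than that between those 2 and IgG, and neither gene was called by edgeR. Vim and Nes, filament protein genes that also mark gliosis, differed less in replicates 1 and 2. Vim had 159.8, 168 and 189.5 CPM in IgG and 204, 182 and 672 CPM in APB5, and Nes had 14.4, 15.5 and 12.7 CPM in IgG and 18, 15.4 and 53.6 CPM in APB5.

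**Figure D3:**
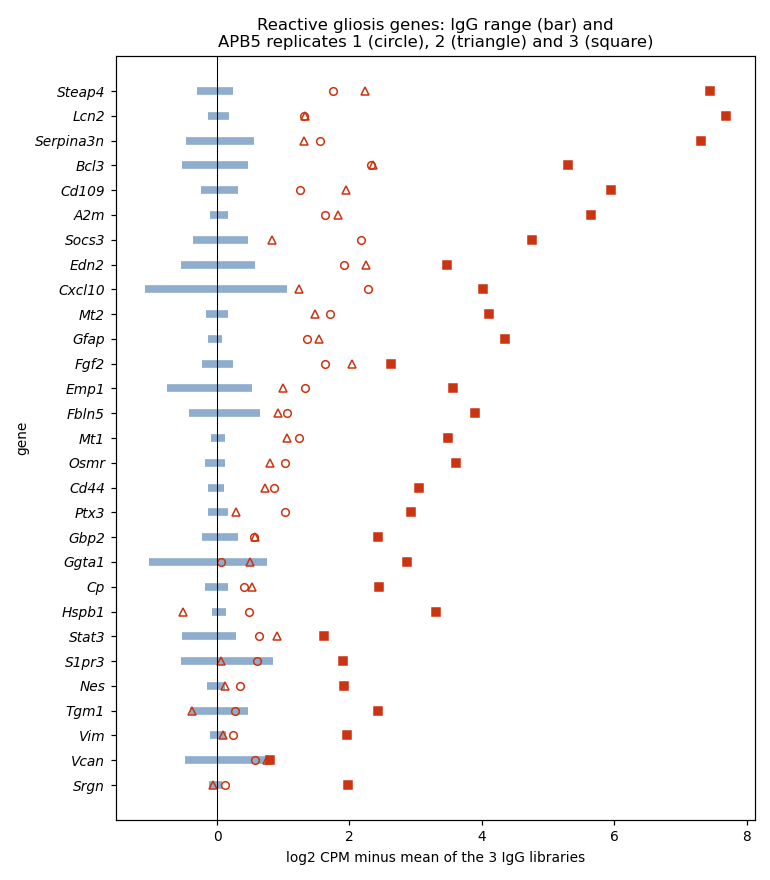
Difference from the IgG mean, in log2 CPM, of the 29 tested reactive gliosis genes, with the range of the 3 IgG libraries as a bar and APB5 replicates 1, 2 and 3 as an open circle, open triangle and filled square. The square is the highest of the 3 APB5 symbols for all 29 genes, and for 21 genes all 3 symbols lie to the right of the bar.

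The gliosis genes were read against their promoters because several belong to the acute-phase response that STAT3 drives. The letters TTCNNNGAA, the core that STAT proteins bind, which read the same on both strands, were searched from 250 bases before to 50 after each RefSeq start site (GRCm38.p6). They occurred in 5 of the 27 gliosis genes with a promoter in the table (18.5%), Emp1, Gfap, Socs3, Steap4 and Tgm1, against 2582 of 27025 genes (9.55%). In the list of gp130 and STAT3 genes described below they occurred in 2 of 21 (9.52%), Cish and Socs3, a share close to that of all genes. For Gfap (chr11:102897151-102897450, minus strand) and Socs3 (chr11:117969317-117969616, minus strand), the gene of a feedback inhibitor that STAT3 induces, the windows are printed 5′ to 3′ with these letters in capitals.
Gfap: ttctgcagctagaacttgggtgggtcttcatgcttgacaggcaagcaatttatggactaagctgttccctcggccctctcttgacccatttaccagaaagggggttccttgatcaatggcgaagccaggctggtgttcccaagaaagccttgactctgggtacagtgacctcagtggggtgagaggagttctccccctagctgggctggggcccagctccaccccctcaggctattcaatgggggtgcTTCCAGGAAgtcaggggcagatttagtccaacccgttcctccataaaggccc
Socs3: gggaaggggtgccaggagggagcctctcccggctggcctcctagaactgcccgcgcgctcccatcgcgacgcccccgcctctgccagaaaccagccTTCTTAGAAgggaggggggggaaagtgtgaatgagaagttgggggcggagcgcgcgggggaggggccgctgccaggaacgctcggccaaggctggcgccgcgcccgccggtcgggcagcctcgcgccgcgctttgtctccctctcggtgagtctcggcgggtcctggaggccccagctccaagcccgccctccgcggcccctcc
A match is a description of the letters and not a measured binding site. Socs3 had 4.64, 5.48 and 8.27 CPM in IgG and 27.1, 10.6 and 162 CPM in APB5, with a log2 fold change of 3.44 (SE 0.95).

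The gp130 and STAT3 list was higher in APB5 replicates 1 and 3, with scores of 0.55, 0.38 and 2.19 against −0.18 to 0.19 in IgG. Of 24 genes 22 were tested, all 22 had a positive log2 fold change (median 1.11), and 9 (40.9%) were above IgG in all 3 APB5 libraries, against 8.11% of all genes. Stat3 itself (chromosome 11, 100775924 to 100830450) had 105, 109.7 and 62.3 CPM in IgG and 139, 167 and 275 CPM in APB5, and Fosl2, an AP-1 transcription factor gene that follows cytokine signaling, had 21.8, 23.6 and 14.8 CPM in IgG and 67.7, 30.9 and 121 CPM in APB5. Fosl2 was called by DESeq2 (adjusted P = 0.00846) and Stat3 was not (DESeq2 adjusted P = 0.113), and the groups overlapped for neither gene. The ligand genes Il6 and Osm had too few counts to be tested.

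The classical complement and C3 list was higher in the same 2 libraries, with scores of 0.50, 0.38 and 3.57 against −0.26 to 0.11 in IgG. Only 10 of its 16 genes were tested, and the terminal components among the rest had too few counts. C4b (chromosome 17, 34947354 to 34962912), whose protein is cleaved by the C1 complex, had 7.21, 10.2 and 14.3 CPM in IgG and 64.2, 69.9 and 312 CPM in APB5, and C3 (chromosome 17, 57510964 to 57535155), the central component, had 1.59, 2.44 and 2.34 CPM in IgG and 6.7, 8.98 and 188 CPM in APB5. The log2 fold changes were 3.81 (SE 0.69) and 4.98 (SE 1.35), and DESeq2 called C4b (adjusted P = 2.41e-08) and gave C3 no adjusted P. Reads of C4b could be split with its near-identical copy C4a. C1ra, a protease of the C1 complex, had 1.58, 2.06 and 1.38 CPM in IgG and 2.6, 3.04 and 21.7 CPM in APB5.

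The list of EGF receptor ligands, which also holds the receptor genes Egfr, Erbb2, Erbb3 and Erbb4, was higher in the same 2 libraries, with scores of 0.50, 0.38 and 0.77 against −0.18 to 0.11 in IgG. Of 12 genes 10 were tested, and 6 were above IgG in all 3 APB5 libraries (60%, against 8.11% of all genes). Areg, the ligand amphiregulin (chromosome 5, 91287451 to 91296291), had 0.163, 0.0902 and 0.599 CPM in IgG and 6.42, 1.2 and 12.4 CPM in APB5, and Btc, betacellulin, had 7.2, 7.48 and 6.08 CPM in IgG and 10.4, 13.6 and 11.6 CPM in APB5. DESeq2 called Areg, with a log2 fold change of 4.39 (SE 0.97) and an adjusted P of 0.0149, whereas the log2 fold change of Btc (0.77) was under the threshold. Egfr, the receptor gene, had 12.3, 15.1 and 9.38 CPM in IgG and 17, 23.9 and 20.9 CPM in APB5. All 3 genes were above IgG in each APB5 library.

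Astrocyte genes were higher in replicates 1 and 3, with scores of 0.51, 0.16 and 1.37 and 9 of 12 genes tested. Pax2, a transcription factor of retinal astrocytes and the optic nerve head, had 1.18, 1.95 and 1.6 CPM in IgG and 2.68, 2.68 and 4.47 CPM in APB5, and S100b, a calcium-binding protein of astrocytes, had 11, 12.5 and 14.1 CPM in IgG and 17, 13.9 and 26.1 CPM in APB5. Both were above IgG in replicate 1 and in replicate 3, and replicate 2 lay above the IgG range for Pax2 and within it for S100b. Genes of homeostatic Müller glia scored 0.088, 0.034 and 0.22, against −0.15 to 0.12 in IgG. In replicate 3, 9 of the 21 genes (42.9%) were above and 8 (38.1%) below all IgG libraries, against 36.0% and 34.3% of all genes. Glul, the glutamine synthetase gene of Müller glia, had 2205, 2294 and 2874 CPM in IgG and 2594, 2367 and 1655 CPM in APB5, and the retinoid-binding protein gene Rlbp1 had 410.1, 402 and 486 CPM in IgG and 424, 346 and 381 CPM in APB5.

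Genes of fibroblasts and meninges were higher in replicates 2 and 3, with scores of 0.50, 0.52 and 2.79 against −0.29 to 0.48 in IgG, and replicate 1 was just under the threshold. Fmod, a collagen-binding proteoglycan, had 12.4, 29.2 and 21.1 CPM in IgG and 42.7, 39.5 and 95.9 CPM in APB5. Col1a1 and Col1a2, the chains of type I collagen, had 2.63, 3.95 and 2.94 CPM in IgG and 2.03, 6.19 and 310.1 CPM in APB5, and 7.61, 14 and 8.14 CPM in IgG and 17.1, 26.4 and 292 CPM in APB5, respectively. In replicate 1 Col1a1 was below and Col1a2 above the IgG range, and in replicate 3 both were far above all other libraries.

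Collagen genes as a whole were higher in replicate 3 only, with scores of −0.093, 0.15 and 1.81 and a median log2 fold change of 1.03 over 25 genes, 0.043 without replicate 3. Laminins and integrins scored 0.16, 0.18 and 1.27, and matrix proteases with their inhibitors 0.39, 0.34 and 2.27. Timp3, an inhibitor of matrix metalloproteinases, had 101, 136 and 93.8 CPM in IgG and 170.2, 167 and 547 CPM in APB5. The groups did not overlap, with a log2 fold change of 1.42 (SE 0.47).

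Smooth muscle contractile genes scored 0.24, 0.052 and 1.43 and were higher in replicate 3 only. Acta2, smooth muscle actin (chromosome 19, 34217737 to 34232990), had 4.44, 5.72 and 3.81 CPM in IgG and 9.04, 7.82 and 169 CPM in APB5, and Tagln, transgelin, had 3.86, 5.84 and 3.72 CPM in IgG and 6.53, 4.99 and 84.3 CPM in APB5. Myh11, the smooth muscle myosin chain that also defines the cell type, had 3.24, 4.31 and 2.82 CPM in IgG and 4.18, 4.88 and 12.4 CPM in APB5. Actg2 had too few counts to be tested, with 0.0181, 0.0361 and 0 CPM in IgG and 0.260, 0.0187 and 5.8 CPM in APB5. Replicate 3 was the highest library for all 4 genes, and without it the median log2 fold change of the list was 0.10.

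The microglial lists were higher in replicate 3 only. Genes shared by microglia and macrophages scored 0.28, 0.087 and 3.0. In replicate 3 all 24 were above IgG, against 36.0% of all genes. In replicates 1 and 2 the counts were 11 and 7 (45.8% and 29.2%, against 22.7% and 25.5% of all genes). Of the 24, 6 (25%) were above IgG in all 3, against 8.11% of all genes. Their median log2 fold change was 1.68, and 0.15 without replicate 3. Genes of disease-associated microglia scored 0.37, 0.29 and 2.47, and those of homeostatic microglia −0.13, −0.12 and 1.04.

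C1qa, a subunit of complement C1q made by microglia (chromosome 4, 136623223 to 136626161), had 7.87, 8.44 and 10.3 CPM in IgG and 14.7, 13.4 and 125 CPM in APB5, and Cd68, a lysosomal protein of phagocytes, had 1.81, 1.62 and 2.42 CPM in IgG and 3.57, 3.32 and 25.5 CPM in APB5. Tyrobp, the adaptor of microglial receptors, had 1.41, 1.6 and 2.01 CPM in IgG and 2.79, 2.21 and 21.4 CPM in APB5, and Aif1, which encodes Iba1, had 0.417, 0.974 and 0.635 CPM in IgG and 0.856, 0.619 and 5.64 CPM in APB5. For C1qa, Cd68 and Tyrobp all 3 APB5 libraries were above all IgG libraries, and for Aif1 replicates 1 and 2 lay within the IgG range.

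The homeostatic markers differed less. P2ry12, a purine receptor of resting microglia, had 1.27, 1.57 and 2.7 CPM in IgG and 1.45, 1.26 and 1.76 CPM in APB5, and no APB5 library was above the IgG range. Tmem119 had 1.45, 1.55 and 3.35 CPM in IgG and 1.6, 1.65 and 9.7 CPM in APB5, and Cx3cr1, the fractalkine receptor gene, had 2.7, 2.4 and 5.11 CPM in IgG and 2.88, 2.96 and 9.09 CPM in APB5. Siglech, a further homeostatic microglial gene, had 1.94, 1.93 and 2.06 CPM in IgG and 0.856, 1.26 and 1.45 CPM in APB5, with each APB5 library below the IgG range.

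Among genes of disease-associated microglia, Lyz2, lysozyme (chromosome 10, 117111557 to 117118346), had 1.25, 1.98 and 1.92 CPM in IgG and 10.8, 3.71 and 154 CPM in APB5, a gene whose near-identical copy Lyz1 may share its reads. Clec7a, the receptor dectin-1, had 0.217, 0.307 and 0.423 CPM in IgG and 0.930, 0.413 and 9.28 CPM in APB5. Clec7a in replicate 2 was the only one of these APB5 values within the IgG range. DESeq2 called both (adjusted P = 0.0457 and 0.0357). Macrophage markers scored 0.23, −0.08 and 1.63 with 12 of 20 genes tested. Mrc1, a marker of perivascular macrophages, had 0.489, 0.956 and 0.899 CPM in IgG and 0.446, 0.806 and 2.99 CPM in APB5, and Ccr2, the monocyte chemokine receptor, had at most 0.63 CPM in any library and was not tested.

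Regulators of complement and the alternative pathway scored 0.26, 0.24 and 1.89 and were higher in replicate 3 only. Cfb, factor B of the alternative pathway (chromosome 17, 35074852 to 35081559), had 0.145, 0.198 and 0.141 CPM in IgG and 0.688, 0.619 and 11.4 CPM in APB5, and Cfi, the factor that inactivates C3b and C4b (chromosome 3, 129629533 to 129668981), had 0.743, 1.03 and 1.43 CPM in IgG and 2.23, 2.64 and 9.88 CPM in APB5. Serping1, the C1 inhibitor gene, had 7.23, 10.6 and 12.4 CPM in IgG and 27.8, 23 and 238 CPM in APB5. All 3 genes were above IgG in each APB5 library, with log2 fold changes of 4.45 (SE 1.21), 2.17 (SE 0.61) and 3.25 (SE 0.92), and DESeq2 called Cfi (adjusted P = 0.0349) and gave the other 2 no adjusted P.

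The interferon response list scored 0.36, 0.40 and 1.77 against −0.21 to 0.28 in IgG, so it was above all IgG libraries in each APB5 library but under 0.5 in replicates 1 and 2. Of 40 genes 39 were tested, 37 had a positive log2 fold change (median 1.03), and 17 (43.6%) were above IgG in all 3 APB5 libraries, against 8.11% of all genes. Isg15, a ubiquitin-like modifier (chromosome 4, 156283883 to 156285303), had 1.52, 1.14 and 1.71 CPM in IgG and 2.94, 3.17 and 8.55 CPM in APB5, and Ifitm3, a membrane protein that blocks viral entry (chromosome 7, 140589499 to 140591282), had 7.48, 8.46 and 12.7 CPM in IgG and 18.4, 14.7 and 70.1 CPM in APB5. The groups overlapped for neither gene, and DESeq2 called Isg15, with a log2 fold change of 1.72 (SE 0.46) and an adjusted P of 0.0369. Without replicate 3 the median log2 fold change of the list was 0.40.

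Interferon-stimulated genes are bound by factors that recognise repeats of GAAA, so the letters TTTC, then 2 bases of any kind, then TTTC were searched on both strands in the same promoter windows. They occurred in 18 of the 28 interferon genes with a promoter in the table (64.3%) and in 1079 of all 27025 genes (3.99%). The list was drawn up from genes known to respond to interferon, so this share is a property of the list and not of these retinas. The windows of Isg15 (chr4:156200769-156201068), Ifitm3 (chr7:141010695-141010994) and Bst2 (chr8:71537423-71537722), which encodes tetherin, all from the minus strand of GRCm38.p6, are printed 5′ to 3′ with the matches in capitals, which include the reverse complement, with GAAA in place of TTTC.
Isg15: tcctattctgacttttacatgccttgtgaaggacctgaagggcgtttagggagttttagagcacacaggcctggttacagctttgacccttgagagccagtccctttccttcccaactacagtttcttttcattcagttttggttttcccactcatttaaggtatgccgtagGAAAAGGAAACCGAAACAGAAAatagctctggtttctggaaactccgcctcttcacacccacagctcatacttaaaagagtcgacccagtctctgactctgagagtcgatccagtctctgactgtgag
Ifitm3: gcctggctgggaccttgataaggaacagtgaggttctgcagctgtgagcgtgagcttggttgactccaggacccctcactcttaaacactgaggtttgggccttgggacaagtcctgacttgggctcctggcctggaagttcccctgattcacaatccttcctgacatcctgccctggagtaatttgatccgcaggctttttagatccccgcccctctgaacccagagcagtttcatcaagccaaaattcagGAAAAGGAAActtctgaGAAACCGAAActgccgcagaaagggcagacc
Bst2: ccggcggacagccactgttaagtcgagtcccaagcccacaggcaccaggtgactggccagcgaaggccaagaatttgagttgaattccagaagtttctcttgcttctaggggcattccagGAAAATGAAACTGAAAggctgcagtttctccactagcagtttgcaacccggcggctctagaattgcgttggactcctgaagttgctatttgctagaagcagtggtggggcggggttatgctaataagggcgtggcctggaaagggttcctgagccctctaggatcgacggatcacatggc
Bst2, chosen after its values were seen, had 2.75, 2.33 and 4.04 CPM in IgG and 5.23, 4.97 and 27.2 CPM in APB5. All 3 genes whose windows are shown were above IgG in each APB5 library. Isg15 and Ifitm3 were named for small P values and Bst2 for its levels, so this follows from the choice. Not every list gene with the letters was above IgG in each APB5 library.

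Antigen presentation genes followed a similar order of libraries. The MHC class I list scored 0.27, 0.19 and 1.80 and the MHC class II list 0.36, 0.48 and 2.82, and their median log2 fold changes without replicate 3 were 0.28 and 0.20. B2m, the light chain of MHC class I (chromosome 2, 121977957 to 121983594), had 24.5, 27.3 and 33.6 CPM in IgG and 54.8, 42 and 212 CPM in APB5, and H2-K1, a heavy chain, had 22.1, 22.9 and 34.1 CPM in IgG and 43.9, 37.3 and 143 CPM in APB5. H2-Ab1 and H2-Aa, the chains of a class II molecule, had 1.38, 1.75 and 1.68 CPM in IgG and 3.76, 3.23 and 17.6 CPM in APB5, and 0.471, 0.415 and 0.159 CPM in IgG and 1.32, 0.806 and 10.3 CPM in APB5, respectively. DESeq2 called both class II genes (adjusted P = 0.0217 and 0.00958), and all 4 genes were above IgG in every APB5 library. H2-K1 may share reads with other class I heavy chain genes.

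Genes of endothelial activation and leukocyte adhesion scored 0.37, 0.38 and 1.87, with 17 of 21 genes tested and 8 (47.1%) above IgG in all 3 APB5 libraries, against 8.11% of all genes. Their median log2 fold change was 1.20, and 0.37 without replicate 3. DESeq2 called 5 of them, Glycam1, Vwf, Lrg1, Icam1 and Emp1, where it called 0.394% of all genes higher. The study names Glycam1 and Icam1 for these data, so this share is not independent support either. Emp1 is also in the gliosis list. Vwf, von Willebrand factor (chromosome 6, 125523737 to 125663642), had 6.56, 7.81 and 11.7 CPM in IgG and 17.9, 18.1 and 23.9 CPM in APB5, and Lrg1, a glycoprotein of TGF-β signaling in vessels, had 0.163, 0.0902 and 0.123 CPM in IgG and 0.818, 1.09 and 6.63 CPM in APB5. Icam1, the adhesion molecule that leukocyte integrins bind (chromosome 9, 20926672 to 20940113), had 1.03, 1.46 and 1.02 CPM in IgG and 2.88, 3.04 and 9.7 CPM in APB5. The selectin genes Sele and Selp had too few counts to be tested.

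General endothelial markers differed less, with scores of 0.16, 0.061 and 0.70. Pecam1 had 13.9, 16 and 12.5 CPM in IgG and 12.8, 13.2 and 12.1 CPM in APB5, and Cdh5, which encodes VE-cadherin, had 4.53, 5.61 and 7.33 CPM in IgG and 8.57, 6.51 and 10.2 CPM in APB5. Tip cell genes scored 0.28, 0.33 and 1.50, and 8 of 17 (47.1%) were above IgG in all 3 APB5 libraries, against 8.11% of all genes. Adm, the vasodilator adrenomedullin (chromosome 7, 110226858 to 110229027), had 0.109, 0.667 and 0.635 CPM in IgG and 1.93, 1.29 and 9.75 CPM in APB5, and was called by DESeq2 (adjusted P = 0.0203). Aplnr, the apelin receptor of sprouting vessels, had 0.199, 0.397 and 0.211 CPM in IgG and 0.391, 0.488 and 4.41 CPM in APB5.

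**Figure D4:**
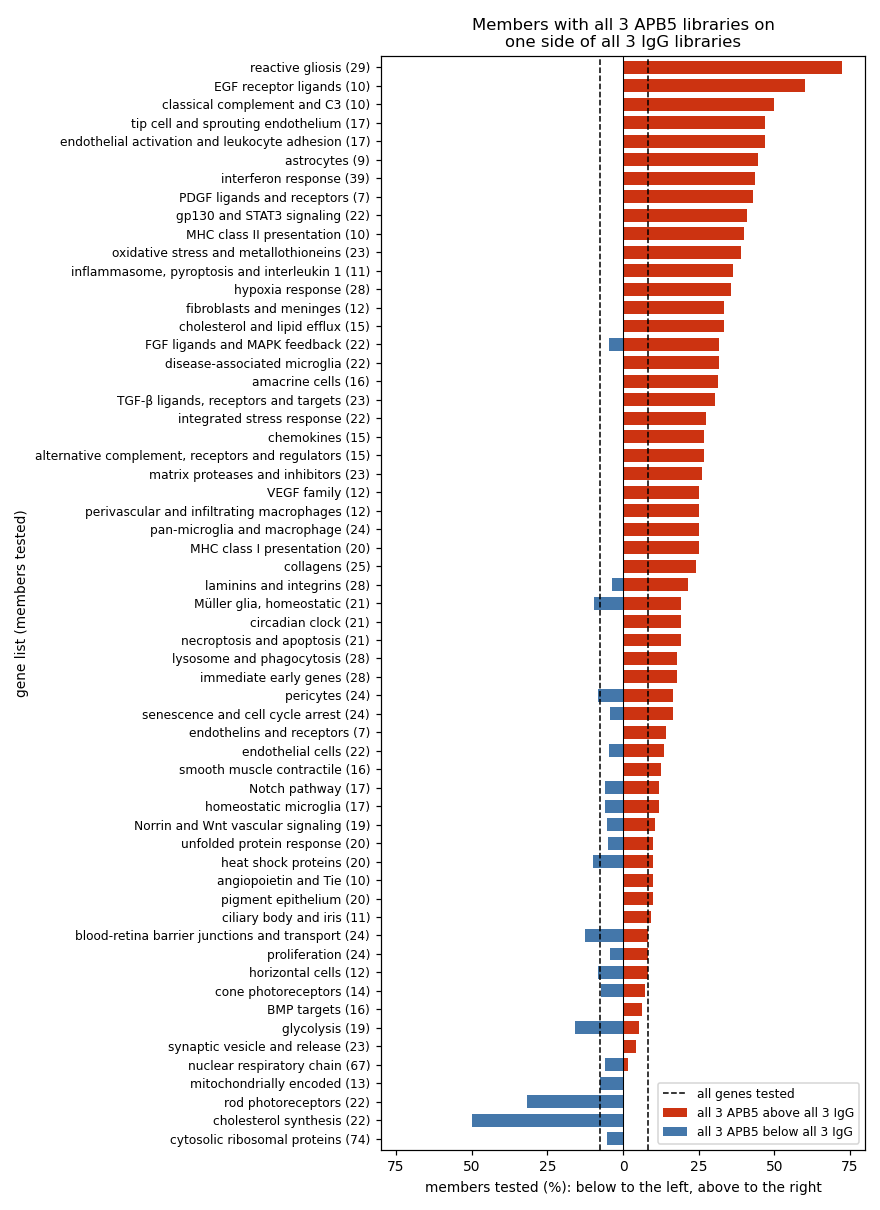
Share of the tested genes of each list, in percent, whose 3 APB5 libraries all lay above (red, to the right) or all lay below (blue, to the left) the 3 IgG libraries, for the lists with at least 1 such gene; dashed lines mark the shares over all genes tested, 8.11% and 7.64%. Reactive gliosis has the longest red bar, 72.4%, and cholesterol synthesis the longest blue bar, 50%.

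The share of genes that lay outside the IgG range in all 3 APB5 libraries, plotted by list, was above the share over all genes for many lists that replicate 3 alone made higher by score. Among them were tip cell genes at 47.1% and oxidative stress genes at 39.1%, against 8.11% of all genes. Hmox1, the stress-induced heme oxygenase, had 7.41, 8.17 and 5.5 CPM in IgG and 18.1, 12.8 and 55.2 CPM in APB5, and was called by DESeq2 with a log2 fold change of 2.02 (SE 0.53) and an adjusted P of 0.0128.

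The hypoxia response list scored 0.24, 0.088 and 0.26 and was not counted as higher in any library. Of its 28 tested genes, 10 (35.7%) were above IgG in every APB5 library and 0 were below, against 8.11% and 7.64% of all genes. Plod2 and P4ha2, collagen hydroxylases that hypoxia induces, had 16.1, 15.8 and 15.5 CPM in IgG and 21.9, 22.1 and 31.8 CPM in APB5, and 12.9, 13.6 and 14.9 CPM in IgG and 18, 17.9 and 23 CPM in APB5, respectively. Vegfa, the endothelial growth factor (chromosome 17, 46327919 to 46343309), had 168, 157 and 180.2 CPM in IgG and 188, 184 and 222 CPM in APB5, with a log2 fold change of 0.23 (SE 0.14). The glycolysis list scored 0.038, −0.18 and 0.057, and 3 of its 19 genes (15.8%) were below and 1 (5.26%) above IgG in all APB5 libraries, against 7.64% and 8.11% of all genes.

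Chemokine and inflammasome lists were higher by score in replicate 3 only. Chemokines scored 0.23, 0.0048 and 1.11, with 16 of 31 genes too low to be tested, and the inflammasome list 0.21, 0.23 and 2.08, with 10 of 21 too low. Above IgG in all 3 APB5 libraries were 4 of 15 chemokine genes (26.7%) and 4 of 11 inflammasome genes (36.4%), against 8.11% of all genes. Casp1, which cleaves interleukin 1β (chromosome 9, 5298508 to 5307290), had 0.0725, 0.162 and 0.176 CPM in IgG and 0.446, 0.488 and 3.64 CPM in APB5, and was called by DESeq2 (adjusted P = 0.0231). Ccl2, a chemokine that attracts monocytes, had 0.199, 0.108 and 0.0529 CPM in IgG and 0.484, 0.319 and 8.59 CPM in APB5, and Cxcl1, one that attracts neutrophils, had 0.217, 0.0361 and 0.300 CPM in IgG and 0.763, 0.694 and 9.75 CPM in APB5. Of the 119 list genes that could not be tested, 22 had at least 1 CPM in replicate 3 and 1 had so in any other library.

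Transcription and stress genes varied within the IgG group as well. Immediate early genes scored 0.71, −0.02 and 1.93 in APB5 but −0.37 to 0.85 in IgG, and the highest IgG score was that of replicate 3. Fosl1, an AP-1 gene, had 0.181, 0.415 and 0.405 CPM in IgG and 3.25, 1.01 and 12.3 CPM in APB5, and Myc, a growth regulator, had 0.544, 0.811 and 0.740 CPM in IgG and 2.47, 0.975 and 10.1 CPM in APB5. Both were called by DESeq2 (adjusted P = 9.3e-05 and 0.0337). Senescence and cell cycle arrest genes scored 0.097, −0.025 and 1.13, and Cdkn1a, which encodes the cell cycle inhibitor p21, had 16.6, 17.4 and 21.6 CPM in IgG and 34.7, 32.7 and 146 CPM in APB5. The integrated stress response list scored 0.22, 0.065 and 0.57, and TGF-β genes 0.22, 0.19 and 1.06.

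Rod photoreceptor genes were lower in replicate 3 only, with scores of −0.068, −0.22 and −1.90 against −0.11 to 0.25 in IgG. All 22 had a negative log2 fold change (median −0.56), 8, 15 and 21 of them were below all IgG libraries in replicates 1, 2 and 3, and 7 (31.8%) were so in all 3, against 7.64% of all genes. The shares were 36.4%, 68.2% and 95.5%, where all genes gave 21.8%, 27% and 34.3%. Gngt1, a subunit of rod transducin, had 1041, 927 and 1304 CPM in IgG and 905, 749 and 333 CPM in APB5, and Pdc, phosducin, had 2807, 2525 and 2584 CPM in IgG and 2148, 2015 and 909 CPM in APB5. Nrl, the transcription factor that fixes rod fate, had 1688, 1758 and 2231 CPM in IgG and 1792, 1521 and 337 CPM in APB5, so that replicate 1 lay within the IgG range and replicates 2 and 3 below it. Without replicate 3 the median log2 fold change of the list was −0.13.

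Cone genes scored −0.014, −0.14 and −0.66, and the cone opsin gene Opn1sw had 320.0, 346 and 724 CPM in IgG and 431, 358 and 120.1 CPM in APB5. Gnb3, a G protein subunit of cones and bipolar cells, had 471, 439 and 524 CPM in IgG and 549, 602 and 1006 CPM in APB5, above IgG in every APB5 library.

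Cholesterol synthesis was the list with the most genes below IgG in every APB5 library, 11 of 22 (50%), against 7.64% of all genes. Its scores were −0.24, −0.34 and −1.27 against −0.067 to 0.046 in IgG, so it was below all IgG libraries in each APB5 library and past 0.5 in replicate 3. The median log2 fold change was −0.55, and −0.26 without replicate 3. Msmo1, a sterol oxidase (chromosome 8, 65170603 to 65186830), had 49.98, 50.5 and 48.2 CPM in IgG and 37.9, 35.6 and 21.5 CPM in APB5, and Sqle, squalene epoxidase (chromosome 15, 59186869 to 59203043), had 56.9, 60.8 and 53.3 CPM in IgG and 47.1, 39.8 and 24.5 CPM in APB5. The log2 fold changes were −0.65 (SE 0.22) and −0.62 (SE 0.23), with an adjusted P of 0.664 for each by edgeR's quasi-likelihood test. None of the 22 genes was called by edgeR or DESeq2, where DESeq2 called 0.0363% of all genes lower. Genes of cholesterol and lipid efflux scored 0.21, 0.14 and 1.35. Abca1, the transporter that exports cholesterol (chromosome 4, 53030787 to 53159900), had 21.9, 25.3 and 16.8 CPM in IgG and 34.5, 45.9 and 230.3 CPM in APB5, and Apoe, the main apolipoprotein of glia, had 760.1, 899.7 and 993 CPM in IgG and 1214, 1156 and 5048 CPM in APB5.

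**Figure D5:**
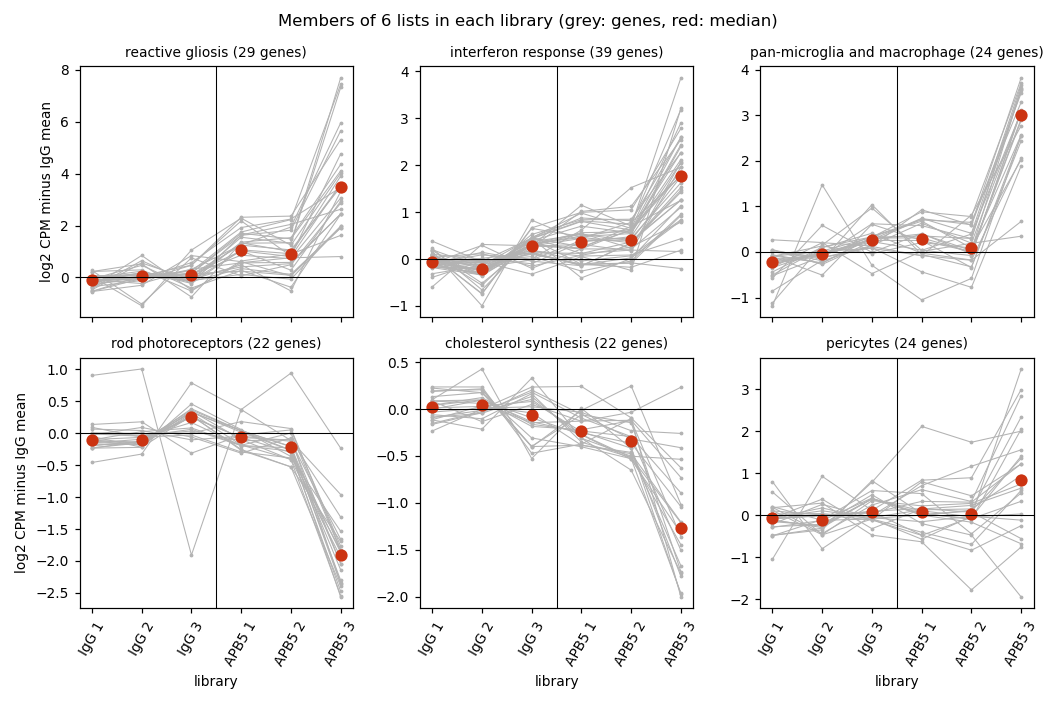
Difference from the IgG mean, in log2 CPM, of each tested gene (grey) and their median (red) in the 6 libraries, for reactive gliosis, interferon response, pan-microglia and macrophage, rod photoreceptors, cholesterol synthesis and pericytes. The red medians of reactive gliosis are 1.06, 0.90 and 3.47 in the APB5 libraries, those of cholesterol synthesis −0.24, −0.34 and −1.27, and those of pericytes stay near 0 in APB5 replicates 1 and 2.

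Genes of inner retinal neurons had scores under 0.5 in every library. Rod bipolar, cone bipolar, horizontal and retinal ganglion cell genes scored between −0.20 and 0.27 in the 3 APB5 libraries. Of 16 ganglion cell genes, 12 (75%) were above all IgG libraries in replicate 3, against 36.0% of all genes. In replicate 2, 8 (50%) were below them, against 27% of all genes, and 0 were above or below IgG in all 3. Amacrine cell genes scored 0.20, 0.091 and 0.44, and 5 of 16 (31.2%) were above IgG in all 3 APB5 libraries, against 8.11% of all genes. Of these, Gad2, a GABA-synthesising enzyme, had 50.04, 56.6 and 45.5 CPM in IgG and 65.2, 67.5 and 100.3 CPM in APB5. Grm6, the glutamate receptor of ON bipolar cells, had 146, 139 and 172 CPM in IgG and 141, 156 and 180.3 CPM in APB5, and Nefl, a neurofilament of ganglion cells, had 575, 604 and 455 CPM in IgG and 501, 464 and 661 CPM in APB5.

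The 74 cytosolic ribosomal protein genes scored −0.041, −0.27 and 0.12, and the 67 nuclear genes of the respiratory chain −0.05, −0.31 and 0.021. In replicate 2, 58 and 60 of these genes were below all IgG libraries (78.4% and 89.6%, against 27% of all genes). The 13 mitochondrially encoded genes scored 0.66, −0.0006 and −0.0047 against −0.28 to 0.36 in IgG and were higher in replicate 1. Of the 13, ND6, the gene read from the other strand of the mitochondrial genome, was the only one below IgG in every APB5 library, with 31.6, 19.4 and 16.8 CPM in IgG and 12.6, 13.7 and 13.9 CPM in APB5. Synaptic release genes scored 0.027, 0.081 and −0.22, circadian clock genes 0.12, 0.17 and 0.036 and heat shock genes 0.025, −0.11 and 0.22.

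Barrier genes also had small scores as a list, at 0.023, 0.029 and 0.41, as did Norrin and Wnt signaling genes at 0.046, 0.064 and 0.11. Mfsd2a, the lipid transporter of barrier endothelium (chromosome 4, 122840643 to 122855244), had 5.18, 4.11 and 9.2 CPM in IgG and 9.04, 9.77 and 25.8 CPM in APB5, and Abcb1a, the drug efflux pump, had 9.55, 10.9 and 12 CPM in IgG and 7.64, 9.38 and 6.02 CPM in APB5. Lrp5, the Norrin coreceptor, had 11.5, 15.4 and 16.3 CPM in IgG and 19.1, 20.2 and 32 CPM in APB5, and was above IgG in each APB5 library. VEGF family genes scored 0.15, 0.10 and 0.42, and Pgf, placental growth factor, had 0.852, 1.98 and 1.22 CPM in IgG and 1.69, 2.63 and 18.9 CPM in APB5.

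RNA of neighbouring tissues differed between the libraries, and its part in the results was not tested. The 20 pigment epithelium genes scored 0.012, 0.026 and 2.45, with a summed level of 1066, 1094 and 1061 CPM in IgG and 1101, 1019 and 2319 CPM in APB5. Its defining marker Rpe65 had 10.6, 4.78 and 4.78 CPM in IgG and 5.23, 7.05 and 33.9 CPM in APB5. In replicate 3, 18 of the 20 genes (90%) were above IgG, against 36.0% of all genes. Lens genes summed to 1100.0, 193 and 138 CPM in IgG and 277, 51.4 and 265 CPM in APB5, and the crystallin gene Cryaa had 365, 55.1 and 22.9 CPM in IgG and 90.4, 1.37 and 33.7 CPM in APB5, so that lens RNA was most abundant in IgG replicate 1 and least in APB5 replicate 2, where the list was lower. The groups overlapped for all 19 lens genes.

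Blood and leukocyte markers differed in another order. Hemoglobin RNA was highest in IgG replicate 3 and APB5 replicate 1, with 21.5, 27.3 and 101 CPM in IgG and 76.5, 47.8 and 19.7 CPM in APB5 for Hbb-bs, which shares reads with its copies. Genes of T, NK and B cells summed to 2.74, 3.26 and 3.67 CPM in IgG and 3.29, 2.76 and 21.3 CPM in APB5, with 6 of 21 tested. This list scored 0.11, −0.28 and 2.73 in APB5 against −0.49 to 0.079 in IgG and was higher in replicate 3 only. The T cell marker Cd3e had at most 0.173 CPM in any library. The B cell marker Cd79a was not tested and had 0.145, 0.108 and 0.0705 CPM in IgG and 0.0744, 0.075 and 2.725 CPM in APB5. Neutrophil genes could not be scored with 3 of 14 tested, and S100a8 had 0.0725, 0 and 0.194 CPM in IgG and 0.0558, 0 and 1.8 CPM in APB5. Cornea, conjunctiva and lacrimal gland genes summed to 1.12, 7.83 and 1.07 CPM in IgG and 0.986, 1.35 and 7.78 CPM in APB5, and 3 of 15 were tested.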

How the data were processed

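Total RNA of whole retinas was made into libraries with a stranded mRNA kit and sequenced in 6 libraries, 3 per group, as part of a series of 12. Per the labels and the study's methods, the authors demultiplexed the reads with bcl2fastq 2.20, aligned them to the mouse genome (mm39) with DRAGEN and deposited whole-number read counts per gene without normalization. The version of DRAGEN and its use of strand in counting are not given in the sources used here. The deposited result tables hold fold changes and P values of the authors' own comparisons and were not used, nor were a second table that repeats these counts and 3 repeated columns.

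Genes were placed by GENCODE M39 (GRCm39) and RefSeq, and 2472 genes on X, 387 on Y and 1521 without a place were left out of every result. CPM with TMM factors were computed here and were not made by the authors. The tests were edgeR 4.0.16 (quasi-likelihood, filterByExpr, prior count 2), DESeq2 1.42.0 and voom with quality weights in limma 3.58.1, under R 4.3.3. Each was fitted to the whole table with Benjamini-Hochberg adjustment. Of these tests, only that of edgeR was also run on simulated data. Calls required an adjusted P no greater than 0.05 together with a log2 difference of 1 or more, and tests were two-sided. DESeq2 gave 120 genes no adjusted P, and these could not be called by it. Among them were C3, C1qa, Tyrobp and Cfb, whose levels were far highest in APB5 replicate 3, so the DESeq2 counts per list leave such genes out. Some genes of the lists are not reported here by name.

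The text names genes that the study names for these data, up to 15 genes per direction with the smallest P among those whose groups did not overlap and whose higher mean was at least 1 CPM, the 4 genes with the smallest P in each list, and the defining markers of cell types. Lists with fewer than 5 tested genes were not scored, which left out neutrophils and cornea. The members and lists were chosen with earlier results of these data known. Alternatives in normalization, filter, tool, libraries, replicate block and list score were computed. An exact permutation test of 3 against 3 libraries cannot give a P below 0.1 and was not used. With 53392207 to 59411044 counts a library, 1 CPM is more than 50 reads, and genes near the lowest values printed rest on few reads.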

Additional observations from a re-analysis of the deposited data

How the results depend on the processing

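Reactive gliosis was higher in every APB5 library used under each alternative except a size threshold of 1, which left 0 lists. The number of such lists was 11 at a threshold of 0.25, 5 with the mean of the members in place of the median, 2 with members of at least 1 CPM only, and 1 to 4 when single libraries were left out. It was 4 without APB5 replicate 2, 3 without IgG replicate 2 and 2 without IgG replicate 3, and no list was lower in all APB5 libraries under any alternative. The 0 calls of edgeR's quasi-likelihood test in both directions became 4 higher and 1 lower with no count filter, and 7 higher and 0 lower in a fit of all 12 libraries. They became 1034 and 117 with Xist as a covariate in 12 libraries, and 1795 and 631 among the high-Xist libraries, where APB5 replicate 3 stands alone and is assumed to vary like IgG, so that these counts describe 1 library and support no call for the treatment. DESeq2 gave 76 and 7, voom 21 and 3, and leaving out single libraries 0 to 13 and 0 to 2, the highest without APB5 replicate 3. The genes past the unadjusted threshold, 626 higher and 89 lower, became 1161 and 199 with no filter, 504 and 41 with at least 10 counts in every library, 1588 and 531 with the Xist covariate, 2436 and 1073 in the high-Xist libraries, 373 and 226 by voom, and 181 to 1137 and 70 to 169 with a library left out. They were 181 higher without APB5 replicate 3, 323, 406 and 381 without IgG replicates 1, 2 and 3, and 1085 and 1137 without APB5 replicates 1 and 2, and 153 and 169 lower without these last 2. Genes outside the IgG range in every APB5 library numbered 2083 to 3145 higher and 1915 to 3279 lower with a library left out, where fewer libraries make this easier. The cause of the other shifts was not tested.

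In the fit with a replicate block the calls remained 0 and 0 and those past the unadjusted threshold were 397 and 109. The deviations of same-numbered libraries correlated at −0.025, 0.139 and 0.115, so the numbers were not taken as pairs. Not every library correlated best with its own number. The log2 fold change of Pdgfrb was 1.31 in the high-Xist libraries, a value of that single APB5 library, and 0.034 to 0.83 with a library left out. No log2 fold change printed for a gene changed its sign under an alternative. Of the list medians under alternatives, 697 stayed within 1 SD of the APB5 libraries and 16 did not, among them the EGF receptor and ligand list at 0.43 without APB5 replicate 3. Genes well below 1 CPM rest on few reads, so their fold changes depend on the prior count.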

Other observations

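Genes of FGF signaling and MAPK feedback scored 0.35, 0.11 and 0.74 in APB5 replicates 1, 2 and 3, and 7 of 22 (31.8%) lay above IgG in all 3, against 8.11% of all genes. Beside Fgf2, these included the feedback inhibitor Spred2, with 16.2, 20.5 and 18.2 CPM in IgG and 27.5, 24.8 and 31.5 CPM in APB5, and Etv5, a transcription factor that MAPK signaling induces, with 37.3, 45.8 and 36.5 CPM in IgG and 55.8, 51 and 64 CPM in APB5. For both genes the 3 APB5 libraries were close together and outside the IgG range. The endothelin receptor genes Ednra and Ednrb had 0.816, 1.23 and 1.32 CPM in IgG and 1.08, 1.24 and 3.2 CPM in APB5, and 3.5, 4.54 and 4.05 CPM in IgG and 5.28, 3.41 and 10.9 CPM in APB5, respectively, with APB5 replicate 3 alone above the IgG range for Ednra.

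In the Notch list, which scored 0.13, 0.022 and 0.26, the ligand gene Jag1 lay below IgG in each APB5 library with 89.7, 92.4 and 82.9 CPM in IgG and 57, 72 and 24.4 CPM in APB5, and the receptor gene Notch2 lay above it with 22.5, 24.5 and 21.4 CPM in IgG and 28.3, 31.2 and 36.6 CPM in APB5. Angpt1, the ligand that pericytes secrete for the endothelial receptor Tie2, had 1.07, 1.33 and 0.864 CPM in IgG and 2.18, 1.84 and 4.14 CPM in APB5, whereas Tek, the gene of Tie2, had 5.67, 6.87 and 8.51 CPM in IgG and 5.62, 5.95 and 4.44 CPM in APB5. The APB5 libraries were all above IgG for Angpt1 and overlapped with it for Tek. Mertk, a receptor for the uptake of outer segments and dying cells, had 9.19, 9.32 and 9.29 CPM in IgG and 11.9, 11.2 and 23.5 CPM in APB5, and lay above IgG in each APB5 library. None of these genes was called by edgeR's quasi-likelihood test or by DESeq2.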
